A study of Saccharomyces cerevisiae with 36 samples.

Results

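The data compared here are the 6 gene expression libraries of strain 12, the dominant wine strain of Saccharomyces cerevisiae, sampled at 30 h, at the beginning of the stationary phase. They were chosen by their labels as 3 libraries from the mixed culture with strain 11, the non-dominant strain, and 3 from the single culture, out of 36 libraries in all. Both strains are wine yeasts and were grown in natural Nebbiolo must with shaking. Every culture, the controls included, was of cells that carried 1 of 2 fluorescent proteins, GFP or eSapphire, integrated into the genome behind the GPD promoter. The strains of a mixed culture were inoculated at equal density and separated afterwards by flow cytometry, and RNA from the sorted cells was amplified before sequencing. Each strain is 1 isolate. The labels describe triplicate fermentations in which the proteins were also swapped between the strains, but not which protein a library carried, so it was not a covariate.

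The 6 libraries held 52267 to 145780 reads on genes, against 35400 to 530376 over all 36, and between 9.71 and 10.7% of each library fell on its 10 leading genes. Replicates of a group differed by more than counting error, with a chi-square per degree of freedom of 2.37 to 4.38. Levels are given as CPM, the reads of a gene scaled to a common library total with edgeR's TMM factors, and fold changes are mixed over single culture. The test was edgeR's quasi-likelihood test, with p-values adjusted over all 3670 genes that passed a filter on low counts. A gene was called at an adjusted p of at most 0.05. CPM is a share of a library, and for a bulk sample, fewer cells that express a gene and less RNA of it per cell cannot be told apart.

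RNA of strain 11 in the sorted fractions was sought with 3 genes of retrotransposons. These were YNL284C-A and YNL284C-B on chromosome XIV and YLR227W-B on chromosome XII. They were chosen by the strain labels, for reads in every single-culture library of strain 11. In every single-culture library of strain 12 they had at most 1 per 50 of that mean CPM. Low counts in the single cultures of strain 12 thus follow from the choice and do not check the labels. Together the 3 genes had 0 reads in each of the 3 single-culture libraries of strain 12 at 30 h, and 2, 0 and 2 reads in mixed replicates 1, 2 and 3. Set against their level in the single culture of strain 11, the mixed libraries held 5.84% (95% exact Poisson interval 0.707 to 21.1), 0% (3 reads would be 9.73%) and 16.5% (1.99 to 59.5) of it. YNL284C-A and YNL284C-B, annotated as transcribed together, each had a mean of 8.85 CPM in the mixed libraries, and YLR227W-B had 0 reads. A read counted under both genes enters as 2 reads, so the intervals may be too narrow. Intervals of this kind cover counting error only. These values leave a wide range for the RNA of strain 11 in the sorted fractions, and its part in the results that follow was not tested.

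The yeast cell wall is a layer of glucan, mannoproteins and a little chitin. Its proteins and enzymes are renewed during growth, and damage to it is signalled by the cell wall integrity kinases and by calcium through calcineurin. Inositol and its lipids feed membranes and the anchors that hold many wall proteins, and the retrograde pathway tells the nucleus how mitochondria are working. Yeast can also make thiamine, the cofactor of pyruvate decarboxylase in alcoholic fermentation, or take it up from the must.

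Few genes of strain 12 were called in the mixed culture at 30 h. The median was 2 to 6 reads per gene in a library, so few calls do not show that few genes changed. Of 3670 genes tested, 8 were called (0.218%), 7 higher (0.191%) and 1 lower (0.0272%), and 281 (7.66%) had an unadjusted p under 0.05. The genes that rose encode proteins of the wall (NCW2, CHS1, YPS1), inositol synthesis (INO1), citrate synthase (CIT2), carbonic anhydrase (NCE103) and an unstudied protein (YOR385W), and the gene that fell, THI22, belongs to a family of thiamine genes. The count depended on the libraries used. Without mixed replicate 1 it was 1, namely NCW2. Without mixed replicate 2 or 3 it was 13 and 16, and without single replicate 1, 2 or 3 it was 3, 4 and 5.

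**Figure D1:**
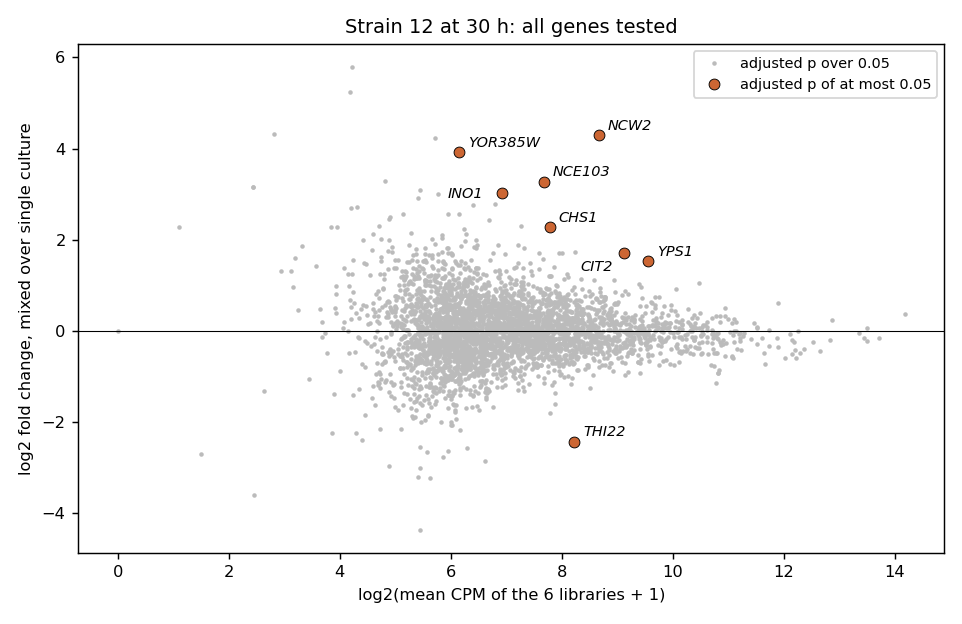
Each point is 1 of the 3670 genes tested, with the log2 of its mean CPM over the 6 libraries plus 1 on the horizontal axis and its log2 fold change, mixed over single culture, on the vertical axis. The 8 genes called are named in orange, 7 of them above 0 and THI22 below.

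NCW2 encodes a structural protein of the cell wall and lies on chromosome XII at 540811 to 541575, minus strand, in the Saccer2 build of the deposited tables, to which all positions below refer. It was at 21.8, 80.5 and 27.2 CPM in the single cultures and at 1648, 425 and 235 CPM in the mixed cultures (43.2 ± 32.4 against 769 ± 767, SD, n = 3 each). Every mixed library was above every single library. The log2 fold change was 4.29 (SE 0.63, edgeR adjusted p = 2.25e-05), the largest of the 8 genes. The call held without any 1 of the 6 libraries, the highest adjusted p being 0.0296 without mixed replicate 1. The log2 fold change was then 3.08, and it was 5.01 without single replicate 2.

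CHS1 encodes chitin synthase I, which repairs the wall of the daughter cell as cells separate. It lies on chromosome XIV at 276503 to 279898, plus strand. The single cultures held 109, 64.4 and 54.3 CPM and the mixed cultures 723, 170 and 196 CPM (76.0 ± 29.2 against 363 ± 312, SD, n = 3 each). The groups did not overlap, and mixed replicate 1 was far above the other mixed libraries. CHS1 had a log2 fold change of 2.27 (SE 0.50, edgeR adjusted p = 0.0161), and without mixed replicate 1 it was 1.20 (adjusted p = 0.949). The call was also lost without single replicate 1, 2 or 3 (adjusted p = 0.0683, 0.17 and 0.151).

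YPS1 encodes a yapsin, an aspartic protease anchored at the cell surface, and lies on chromosome XII at 386512 to 388221, minus strand. Single-culture libraries gave 612, 177 and 367 CPM and mixed-culture libraries 1787, 749 and 823 CPM (385 ± 218 against 1120 ± 579, SD, n = 3 each). The groups were separate, although the highest single library lay close to the lowest mixed one. Its log2 fold change was 1.52 (SE 0.35, edgeR adjusted p = 0.0315), the nearest to the threshold of the genes called. Without mixed replicate 1 it was 0.99 (adjusted p = 0.903), and the call was also lost without single replicate 2 or 3 (adjusted p = 0.401 and 0.16). TOP3 was the first gene beyond it, with an adjusted p of 0.0508.

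INO1 encodes inositol-3-phosphate synthase, the first enzyme of inositol synthesis, and lies on chromosome X at 134329 to 135930, minus strand. It had 10.9, 48.3 and 27.2 CPM in the single cultures, or 1, 3 and 2 reads, and 361, 139 and 137 CPM in the mixed cultures (28.8 ± 18.7 against 213 ± 129, SD, n = 3 each). All mixed libraries exceeded all single ones. INO1 rose by 3.03 on the log2 scale (SE 0.59, edgeR adjusted p = 0.00647). Without mixed replicate 1 the rise was 2.34 (adjusted p = 0.521), and the call was also lost without single replicate 1 (adjusted p = 0.0964). It was the only gene of the 8 that limma called on log2(RPKM + 1).

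CIT2, the peroxisomal citrate synthase of the glyoxylate cycle, is the classical target of the retrograde pathway and lies on chromosome III at 120944 to 122326, minus strand. Its level was 208, 177 and 394 CPM in the single cultures and 1196, 641 and 706 CPM in the mixed cultures (260 ± 117 against 847 ± 303, SD, n = 3 each). The groups did not overlap, and the spread between mixed libraries was smaller relative to the mean than for NCW2. The log2 fold change was 1.72 (SE 0.37, edgeR adjusted p = 0.0161). Without mixed replicate 1 it was 1.36 (adjusted p = 0.651), and the call was also lost without single replicate 1 or 2 (adjusted p = 0.142 and 0.197).

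NCE103 encodes carbonic anhydrase, which makes the bicarbonate that carboxylases use, and lies on chromosome XIV at 559815 to 560480, plus strand. The single cultures held 10.9, 32.2 and 81.5 CPM and the mixed cultures 779, 239 and 78.4 CPM (41.5 ± 36.2 against 365 ± 367, SD, n = 3 each). It was the only gene called whose groups overlapped, since mixed replicate 3 was just below single replicate 3. On the log2 scale it rose by 3.27 (SE 0.65, edgeR adjusted p = 0.00647). The rise was 2.12 without mixed replicate 1 (adjusted p = 0.699) and 4.27 without single replicate 3 (adjusted p = 0.0119), and the call was also lost without single replicate 1 or 2 (adjusted p = 0.11 and 0.0567).

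YOR385W, a gene with no known function, lies on chromosome XV at 1065041 to 1065913, plus strand. It had 0, 0 and 2 reads in the single cultures and 35, 14 and 2 reads in the mixed cultures, or 0, 0 and 27.2 CPM against 243, 108 and 39.2 CPM. The groups were separate, but single replicate 3 and mixed replicate 3 both rested on 2 reads. The ratio of the summed reads, corrected for depth, was 17.9 (95% counting interval 4.70 to 151), and edgeR gave an adjusted p of 0.0161. The call was lost without mixed replicate 1 (adjusted p = 0.67) and without single replicate 1 or 2 (adjusted p = 0.183 and 0.17).

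THI22 was the gene that fell. Its protein resembles the phosphomethylpyrimidine kinases of thiamine synthesis, and it lies on chromosome XVI at 778579 to 780297, plus strand. The single cultures held 339, 467 and 706 CPM and the mixed cultures 55.6, 139 and 78.4 CPM (504 ± 187 against 91.0 ± 43.1, SD, n = 3 each). No mixed library reached the lowest single one. The log2 fold change was -2.43 (SE 0.50, edgeR adjusted p = 0.00795), and the call was lost without mixed replicate 1 (adjusted p = 0.521) or single replicate 3 (adjusted p = 0.0918). THI20 and THI21 are similar genes, so the split of shared reads among the 3 is uncertain.

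**Figure D2:**
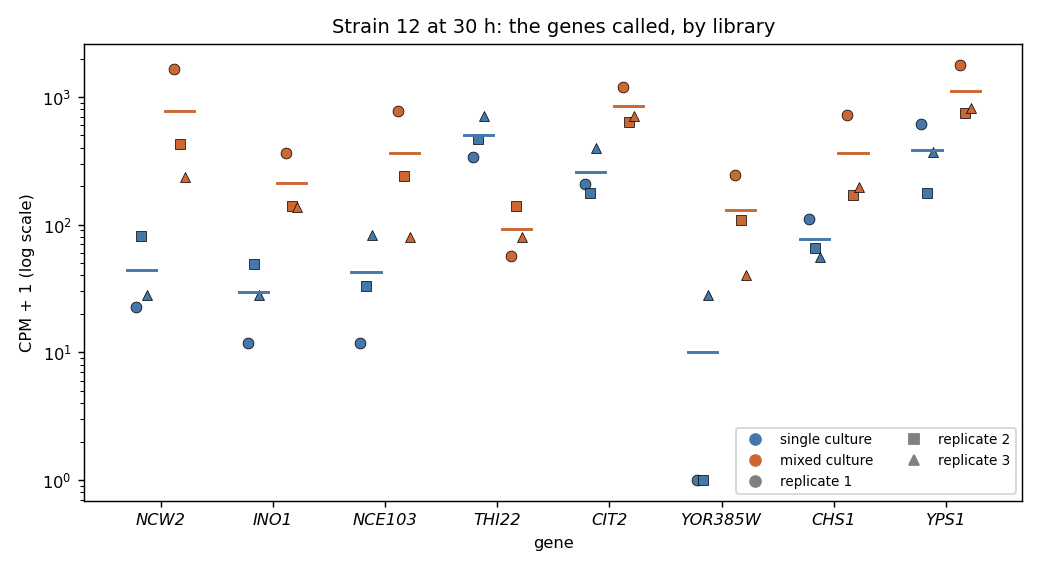
CPM plus 1, on a log scale, of the 8 genes called, for each of the 6 libraries (blue, single culture, orange, mixed culture, symbol shape by replicate number, bar at the mean of 3 libraries). Mixed replicate 1 is the highest mixed library for all 7 genes that rose, and only NCE103 overlaps between the groups.

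Per length, the mixed-culture means on the RPKM scale were 998 ± 998 for NCW2, 649 ± 338 for YPS1, 607 ± 219 for CIT2 and 545 ± 548 for NCE103. YOR385W followed at 148 ± 118, INO1 at 132 ± 80.3, CHS1 at 106 ± 91.4 and THI22 at 52.4 ± 24.9 (SD, n = 3 each). Neighbours in this order differed by less than their spread.

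Mixed replicate 1 was the highest of the mixed libraries for 7 of 7 genes called higher. Over the 1802 genes tested with a log2 fold change above 0, it was the highest of the mixed libraries for 43.6%, mixed replicate 2 for 27.6% and mixed replicate 3 for 28.9%. It also had the most reads, 145780, and mixed replicate 3 the fewest, 52267. What sets this library apart was not tested.

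The next 17 genes in order of p did not pass (adjusted p 0.0508 to 0.189), and their values are given as such. Of these, 12 were higher and 5 lower in the mixed culture, with 10 and 4 of them not overlapping between the groups, against 6.02% and 5.37% of all genes tested. Genes taken in order of p tend to have separate groups, so these counts follow in part from the choice. PAL2, which acts in endocytosis, was at 175, 113 and 136 CPM in the single cultures and 598, 471 and 314 CPM in the mixed cultures. Its log2 fold change was 1.72 (SE 0.42, adjusted p = 0.0508). YJL213W, of unknown function, had 0, 32.2 and 54.3 CPM against 257, 100.4 and 216 CPM. CMK2, a calmodulin-dependent protein kinase, had 131, 161 and 54.3 CPM against 382, 178 and 627 CPM, with its highest value in mixed replicate 3. SPS100, a spore wall protein, had 32.8, 80.5 and 54.3 CPM against 501, 131 and 118 CPM.

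Several of these genes rested on few reads. TOP3, DNA topoisomerase III, had 0, 0 and 1 reads against 18, 7 and 6, a ratio of 21.7 (95% counting interval 3.62 to 885), and it overlaps the gene YLR235C. CAR1, arginase, had 1, 0 and 2 reads against 24, 15 and 0, a ratio of 9.11 (2.90 to 46.1), and its groups overlapped. SEC2, an exchange factor of secretion, had 1, 0 and 1 reads against 18, 6 and 3, a ratio of 9.46 (2.38 to 82.1). TMA46, PUN1, a plasma membrane protein, MGA1, PAR32 and SRO9, an RNA-binding protein, made up the rest of the higher genes, with log2 fold changes of 1.70 to 2.75. Among the 5 lower genes, CLN2, a G1 cyclin, had 65.5, 32.2 and 299 CPM in the single cultures and 6.95, 38.6 and 19.6 CPM in the mixed cultures, and overlapped. BUD2, which acts in bud-site selection, and RPL23A, a ribosomal protein with a near-identical copy, had log2 fold changes of -3.22 and -2.65. DESeq2 called 6 of the 17, namely PAL2, YJL213W, CLN2, CMK2, SPS100 and PUN1.

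The thiamine genes lay mostly on the lower side. Of 17 tested, THI22 was called, 12 were below 0 with a median log2 fold change of -0.34, and 6 had all mixed libraries below all single ones (5.37% of all genes tested). Of all 3670 genes, 1867 were below 0 and the median was -0.02. THI13, of the near-identical family that makes the pyrimidine of thiamine, was at 131, 209 and 163 CPM in the single cultures and 13.9, 23.2 and 39.2 CPM in the mixed cultures. It did not pass (log2 fold change -2.86, SE 0.76, adjusted p = 0.0901). THI11 of the same family had 1, 8 and 8 reads against 0, 1 and 0, while THI5 and THI12 had 0 reads in both groups, so the split of reads within the family is uncertain. THI72, a transporter, had a log2 fold change of -1.73 (adjusted p = 0.422). SNZ1, which acts in vitamin B6 synthesis, had 1.69.

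For calcineurin and calmodulin signalling, YPS1 was the 1 gene called of 18 tested. 14 of the 18 were above 0 (1802 of all 3670 genes tested), and the median log2 fold change was 0.38. An unadjusted p under 0.05 was found for 6, all higher (4.39% of all genes tested). Non-overlapping and higher were 6 (6.02% of all genes tested). Besides CMK2, the calcineurin regulator RCN2 was at 109, 113 and 95.1 CPM in the single cultures and 285, 216 and 333 CPM in the mixed cultures (log2 fold change 1.36, SE 0.47, adjusted p = 0.347). CRZ1, the transcription factor that calcineurin activates, had 120, 96.6 and 95.1 CPM against 306, 178 and 137 CPM. Its groups were separate, but it did not pass (log2 fold change 1.04, SE 0.47, adjusted p = 0.595). RCN1 had 0 reads in the single cultures and 13, 2 and 0 reads in the mixed cultures. That is 3.50-fold higher with the single group set at a floor of 3 reads. Counting error in the mixed reads is not in this value, so it is no lower limit. The genes of the calcineurin subunits, CNA1, CMP2 and CNB1, had log2 fold changes of -0.66, 0.49 and -0.79.

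The study listed 28 genes for the response of strain 11 to the mixed culture, a list it chose on libraries of this series. It kept genes that rose in strain 11 at more than a single time and left out those altered in strain 12. Many calls in strain 11 and few in strain 12 thus follow in part from the choice. CMK2, CRZ1, RCN2, PMC1, GYP7 and HAL5 are in this list and in that of calcineurin and calmodulin signalling. In strain 12 at 30 h, 0 of the 28 were called by edgeR, 10 had an unadjusted p under 0.05, all higher (4.39% of all genes tested), 23 were above 0, and the median log2 fold change was 0.67. In strain 11 at 30 h, 25 of the 28 were called higher (2.45% of all genes tested), with a median of 2.02. Besides CAR1, CMK2 and RCN2, ALD6, acetaldehyde dehydrogenase, was at 1103, 1031 and 638 CPM in the single cultures of strain 12 and 3093, 1320 and 1294 CPM in the mixed cultures. Its groups did not overlap, and the log2 fold change was 1.05 (SE 0.34, adjusted p = 0.288). The difference between the strains over the list as a whole was not tested.

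In the pathways around the genes called, no second gene passed edgeR's test, while DESeq2 also called PUN1 among the targets of the cell wall integrity pathway. Of 14 chitin genes tested, CHS1 was the only one called, against 0.218% of all genes tested. Below 0 were 11 (1867 of all 3670), and the median log2 fold change was -0.20. Of 18 targets of the cell wall integrity pathway, NCW2 was called and the median was -0.07. Of the 16 sensors and kinases of that pathway, 0 were called by edgeR and 3 had an unadjusted p under 0.05 (7.66% of all genes tested). Among the 4 yapsin relatives tested, MKC7 had 0 reads in the single cultures and 2, 4 and 3 in the mixed cultures. It was 2.10-fold higher with the single group set at the same floor, again no lower limit. YPS7 and YPS3 had log2 fold changes of -0.74 and 0.52. INO1 was the only one called of 21 genes of inositol and phospholipid synthesis (median -0.08), CIT2 of 15 retrograde genes (median -0.05) and of 25 genes of the tricarboxylic and glyoxylate cycles (median -0.36), and NCE103 of 9 genes of carbonic anhydrase and carboxylases (median -0.15). ACO1, mitochondrial aconitase, had a log2 fold change of -0.94 (adjusted p = 0.428).

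Other wall genes held no call. Among 20 mannoproteins, flocculins and agglutinins the median log2 fold change was 0.05, among 18 genes of beta-glucan synthesis -0.16, and among 11 genes of cell separation -0.15. SED1, an abundant wall protein of the stationary phase, was at 17008, 13639 and 18203 CPM in the single cultures and 30941, 22821 and 9232 CPM in the mixed cultures. The groups overlapped (log2 fold change 0.37, SE 0.35, adjusted p = 0.856). TIP1 and BSC1 had log2 fold changes of 0.01 and -0.08, whose sign changed with the setting, and the flocculin FLO11 had -0.81 on 12 against 10 reads.

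Genes of alcoholic fermentation lay slightly below 0. Of 24 genes of glycolysis and fermentation, 0 were called by edgeR and 22 were negative (1867 of all 3670 genes tested). The median log2 fold change was -0.47, and 3 had an unadjusted p under 0.05, all lower (3.27% of all genes tested). ADH4, an alcohol dehydrogenase, was at 371, 467 and 679 CPM in the single cultures and 188, 170 and 314 CPM in the mixed cultures (log2 fold change -1.25, adjusted p = 0.347). HXT3, a hexose transporter, had 1770, 3655 and 1834 CPM against 786, 1042 and 1490 CPM, with no overlap (log2 fold change -1.15, adjusted p = 0.268). Of 16 trehalose and glycogen genes 14 were negative (median -0.29), and of 16 genes of the Ehrlich pathway and acetate esters 12 were (median -0.44). Of 8 hexose transporters 6 were negative (median -0.27). In each list 0 were called by edgeR and 1 had an unadjusted p under 0.05, in the lower direction (3.27% of all genes tested).

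**Figure D3:**
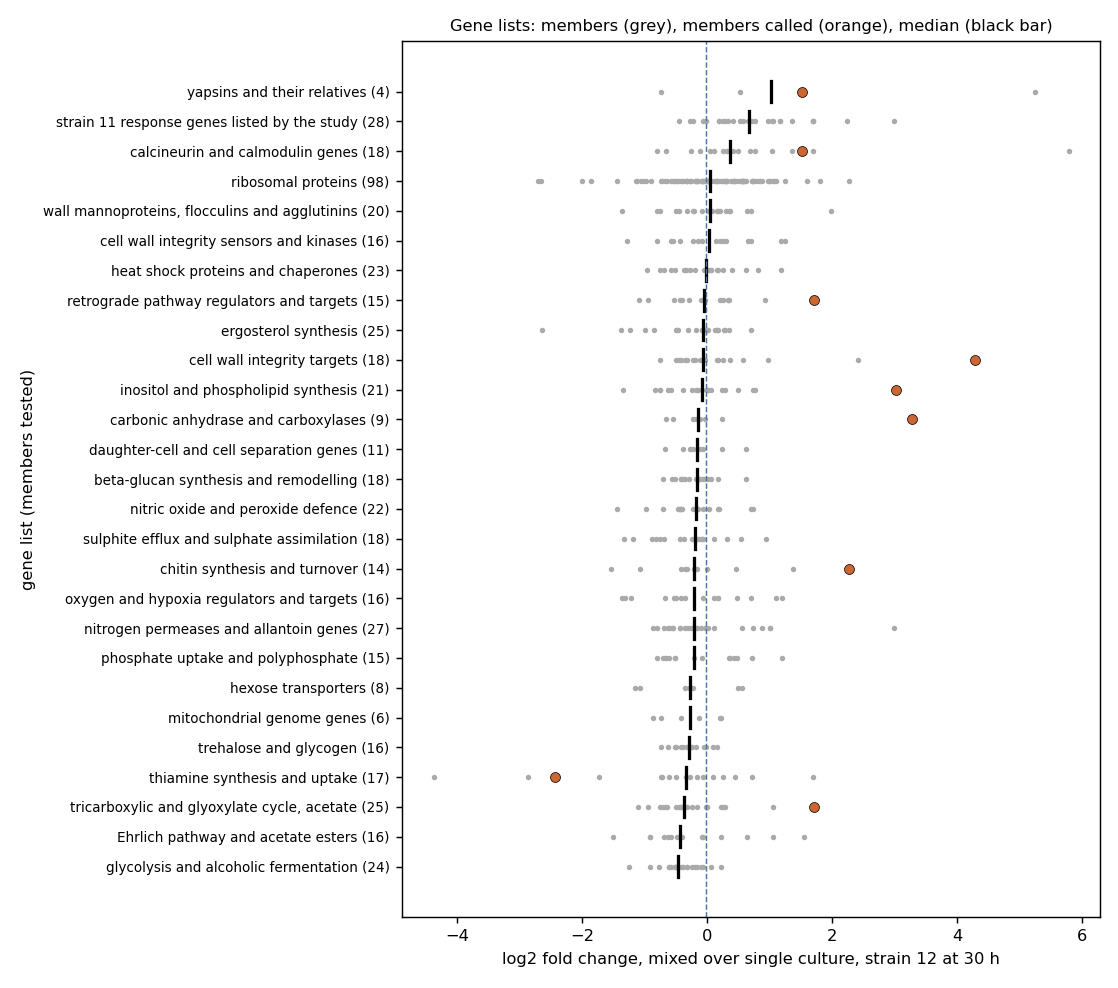
Log2 fold changes, mixed over single culture, of the tested members of each gene list (grey points), with members called in orange and the median as a black bar. The dashed line is the median of all genes tested, -0.02, and the number tested stands in brackets. The list of strain 11 response genes (0.67) and the calcineurin list (0.38) have the highest medians of the lists with 5 or more members, and glycolysis and fermentation (-0.47) the lowest. The strain 11 and calcineurin lists share CMK2, CRZ1, RCN2, PMC1, GYP7 and HAL5.

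The 8 genes were compared with other comparisons in the same fit, none of which shares a library with this one. At 20 h in strain 12, 7 of the 8 were called in the same direction (87.5% of the 8 and 14.9% of the 47 called there, 1.28% of all genes, 0.708% higher), all but NCE103. At 12 h only INO1 was (1 of 95 called, 2.59% of all genes, 1.61% higher). In strain 11 at 30 h, 7 of the 8 were called in the same direction, which is 5% of the 140 called there (3.81% of all genes, 2.45% higher), all but THI22. By the paper's methods, aliquots were taken from a fermentation at each phase, and both strains were sorted from the mixed ones. Libraries of 20 and 30 h, and mixed libraries of both strains, may thus come from the same cultures. The fit treated all libraries as independent, so a gene called in several comparisons is not an independent repeat.

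Taking the time points 12, 20 and 30 h in turn, the log2 fold changes of NCW2 were 0.00, 5.80 and 4.29 (SE 0.44, 0.68 and 0.63). CIT2 had 0.22, 3.31 and 1.72, and CHS1 had 0.44, 3.52 and 2.27. THI22 had -0.80, -2.32 and -2.43 and INO1 2.10, 1.55 and 3.03. The difference between the responses at 30 and 20 h was tested, and 0 of 3670 genes passed by edgeR or by DESeq2, with 154 (4.20%) at an unadjusted p under 0.05. CIT2 had the smallest unadjusted p of the 8, 0.00604 (difference -1.60, SE 0.56, adjusted p = 0.887). The difference between 30 and 12 h was not tested.

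The same genes had larger fold changes in strain 11 for all but NCE103 and THI22. The log2 fold changes there were 4.92 for NCW2, 3.83 for INO1, 2.32 for NCE103, 2.95 for CIT2, 4.39 for YOR385W, 3.97 for CHS1, 2.77 for YPS1 and -1.15 for THI22. The difference between strains (strain 12 minus strain 11) passed for none of the 8. It was -1.69 for CHS1 (SE 0.72, adjusted p = 0.47), -1.25 for YPS1 (SE 0.49, adjusted p = 0.40) and -1.24 for CIT2 (SE 0.51, adjusted p = 0.446), and -0.63 for NCW2 (SE 0.95, adjusted p = 0.903). Intervals of this width do not show that the strains responded alike.

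**Figure D4:**
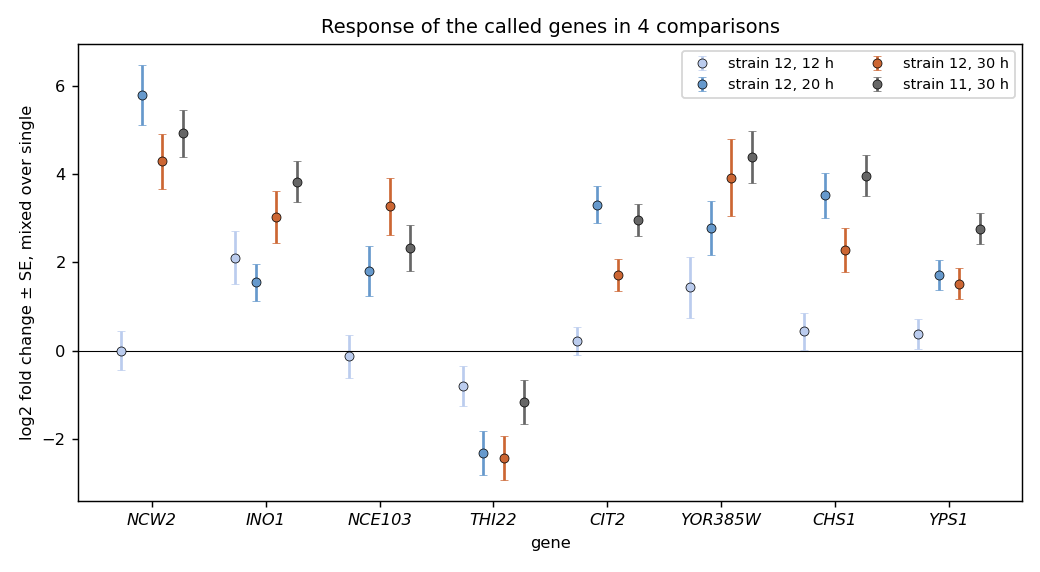
Log2 fold change, mixed over single culture, of the 8 genes called, with its standard error, in strain 12 at 12, 20 and 30 h and in strain 11 at 30 h (3 libraries a group). NCW2, CIT2 and CHS1 are near 0 at 12 h and highest at 20 h in strain 12, and THI22 is below 0 in all 4 comparisons.

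Beside these values stand the levels of the same genes in strain 11. In mixed replicates 1, 2 and 3 of strain 12, NCW2 was at 55.9, 14.4 and 7.98% of its mean level in the mixed culture of strain 11, CHS1 at 45.8, 10.8 and 12.4%, CIT2 at 47.9, 25.7 and 28.3% and INO1 at 48.9, 18.8 and 18.6%. NCE103 was at 118, 36.3 and 11.9%. Each share divides the CPM of a library by 1 fixed level, so mixed replicate 1 is highest here as it is in CPM. The strain 11 marker genes, against their own level in the mixed culture of strain 11, were at 17.5% (95% exact Poisson interval 2.12 to 63.2), 0% (3 reads would be 29.1%) and 49.3% (5.97 to 178). These intervals have the limits given above for the marker genes. The part of strain 11 RNA in the rise of these genes was not tested.

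Of all 3670 genes, 1 differed between the responses of the strains at 30 h (0.0272%), SSU1, the sulphite efflux pump, with 309 (8.42%) at an unadjusted p under 0.05. It lies on chromosome XVI at 373790 to 375166. In strain 12 it was at 1114, 1288 and 829 CPM in the single cultures and 542, 818 and 549 CPM in the mixed cultures. The groups did not overlap, but the change did not pass within strain 12 (log2 fold change -0.74, SE 0.36, adjusted p = 0.625). In strain 11 it had 1, 2 and 1 reads in the single cultures and 26, 7 and 17 in the mixed cultures, and rose (log2 fold change 3.44, adjusted p = 0.000837). The difference of the responses was -4.18 (SE 0.78, edgeR adjusted p = 0.00618). In the mixed culture, strain 11 held 174 ± 124 CPM and strain 12 636 ± 158 CPM (SD, n = 3 each). The strain 11 marker genes summed to a mean of 238 CPM in the single culture of strain 11 and 79.5 CPM in its mixed culture. The part of strain 12 RNA in the rise of SSU1 in the sorted strain 11 fraction was not tested.

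**Figure D5:**
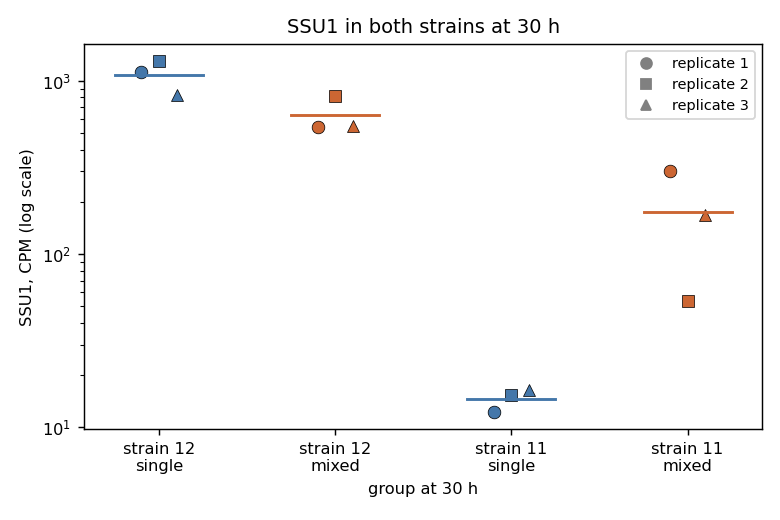
CPM of SSU1, on a log scale, in single and mixed cultures of both strains at 30 h (points, libraries, bar, mean of 3). All libraries of strain 12 lie above all libraries of strain 11, and the mixed libraries lie below the single ones in strain 12 and above them in strain 11.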

How the data were processed

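The authors sequenced RNA of sorted cells on the SOLiD platform, aligned the reads to the Saccer2 yeast genome and deposited, for each library, tables of gene and exon counts with RPKM values. Cufflinks 1.3.0 and Cuffdiff are in the submitters' processing notes, and the version of the program that made the counts was not given in the sources used here. For the deposited RPKM, reads scaled by gene length and library size, values recomputed from the counts matched within rounding (0.006 RPKM plus 1e-04 of the value) for 100% of genes in every library. Of 6717 gene identifiers, 6025 were named from the R64 annotation, used for names only, and 1339 genes overlap another.

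The deposited counts of all 36 libraries (12 groups of 3) were fitted with edgeR 4.0.16 (R 4.3.3, TMM factors 0.959 to 1.04 for the 6 libraries, filterByExpr with a minimum count of 10, quasi-likelihood test, two-sided, Benjamini-Hochberg adjustment). SE is the size of the log2 fold change divided by the root of F. Alternatives were DESeq2 1.42.0, limma 3.58.1 on log2(RPKM + 1) and log2(RPKM + 0.1), DESeq2's size factors, no filter, exon counts, the 6 libraries only, a replicate block, a log2 fold change of at least 1, and leaving out each library. Scripts were tested on simulated data. Named genes were those called, the next by p up to 25, genes the study names and up to 4 of each list. Members and lists were chosen with earlier results of these data known. An exact permutation test of 3 against 3 cannot give p under 0.1. Promoter sequences were not used here.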

Additional observations from a re-analysis of the deposited data

Results flagged for a closer look

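SSU1 was picked out because its response to the mixed culture at 30 h differed between the strains by a test of the difference itself: the log2 fold change of strain 12 minus that of strain 11 was -4.18 (SE 0.78, edgeR adjusted p = 0.00618). Mixed libraries of strain 12 were lower than single ones in 3 of 3 replicates and those of strain 11 higher in 3 of 3. The single-culture level of strain 11 rested on 1, 2 and 1 reads, and the part of strain 12 RNA in its mixed-culture level was not tested. The call was lost without replicate 1 or 2 of the single culture of strain 11 or replicate 1 of its mixed culture, where 0 genes passed, and it was kept without any 1 of the strain 12 libraries at 30 h.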

How the results depend on the processing

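The count of 8 genes called in strain 12 at 30 h was 14 with DESeq2. With no filter on low counts (6400 genes tested) it was 22, with exon counts 9 and with DESeq2's size factors 8. It was 1 with limma on log2(RPKM + 1) and 0 on log2(RPKM + 0.1), with 327 genes at an unadjusted p under 0.05 in both, and 2 in a fit of the 6 libraries only, where 1741 genes were tested. The 8 genes remained among those called with DESeq2, no filter and exon counts. A log2 fold change of at least 1 could remove none of the 8, since the smallest in size was 1.52. Leaving out 1 library gave 1 to 16 calls. The difference between strains was called for 1 gene, for 23 with no filter, for 0 with limma at both pseudocounts, and for 0 to 2 without 1 library. The difference between 30 and 20 h had 0 calls in each setting.

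Libraries with the same replicate number did not deviate together (correlations 0.0387, -0.0715 and -0.0256). With a replicate block 6 genes were called, NCE103 and YOR385W being lost, and 4 in the 6 libraries only with the replicate block. The log2 fold change of BSC1 was 0.05 with limma at both pseudocounts (0.0478 and 0.0498). That of TIP1 was -0.0012 with DESeq2, -0.0044 with its size factors, -0.0148 with the replicate block and -0.0045 with the 6 libraries and block. The cause was not tested. Without 1 library, the log2 fold change ran from -0.4569 to 0.0405 for YHB1, -0.5128 to 0.5903 for BSC1, -0.0195 to 0.7312 for SED1 and -0.1287 to 0.2118 for TIP1, none of them called. Depth was 52267 to 145780 reads, and a gene at 0 in a group was compared only against a floor of 3 reads.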

Other observations

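Of the other gene lists, 0 genes were called by edgeR in strain 12 at 30 h. For oxygen and hypoxia, 16 genes were tested and 2 had an unadjusted p under 0.05, both higher (4.39% of all genes tested). ROX1, a repressor of hypoxic genes, was at 371, 290 and 285 CPM in the single cultures and 897, 795 and 294 CPM in the mixed cultures (log2 fold change 1.11, SE 0.40, adjusted p = 0.416). MOT3, another repressor, had 175, 96.6 and 136 CPM against 487, 263 and 157 CPM. For ergosterol synthesis, 25 genes were tested and 3 had an unadjusted p under 0.05, all lower (3.27% of all genes tested). ERG2, a sterol isomerase, was at 43.7, 193 and 81.5 CPM in the single cultures and 20.9, 7.72 and 19.6 CPM in the mixed cultures, with no overlap (log2 fold change -2.64, SE 0.82, adjusted p = 0.237).

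The 98 ribosomal protein genes tested had a median log2 fold change of 0.05. At an unadjusted p under 0.05, 3 were higher and 4 lower, against 4.39% and 3.27% of all genes tested. The median was -0.02 for 23 heat shock proteins and chaperones, -0.21 for 27 genes of nitrogen uptake, -0.20 for 18 genes of sulphate assimilation, -0.21 for 15 phosphate genes and -0.18 for 22 genes of nitric oxide and peroxide defence. YHB1, which detoxifies nitric oxide, had a log2 fold change of -0.22, and OPT2, an oligopeptide transporter, -0.44. The 6 mitochondrial genes tested had a median of -0.27, and -2.36 in strain 11, where 4 were called lower (1.36% of all genes tested). Of 74 retrotransposon genes 3 passed the filter, with 0 reads in the single cultures of strain 12.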
